A study of Mus musculus with 48 samples.

Results

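The homozygous effect of a dominant negative LXRα was compared with the homozygous effect of removing LXRα, gene by gene, in mouse liver. For each gene the knockout effect (KO:HOM against KO:WT) was subtracted from the knock-in effect (DN:HOM against DN:WT), both on the log2 scale, so that a positive difference means a more positive effect in the knock-in than in the knockout. The comparison used 32 of the 48 livers of the series, 8 in each of these 4 groups, and 30 of them when 2 libraries described below were left out. Heterozygous livers entered the low-count filter, the scaling and the shared estimate of the spread between animals, but not the group means compared.

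The DN mice carried the W441R mutation of LXRα (gene Nr1h3), introduced with CRISPR–Cas9 into C57BL/6J embryos and bred from an F0 founder. The KO mice lacked LXRα and came from a line of mixed Sv129/C57Bl/6 origin that had been backcrossed to C57BL/6. DN:WT and KO:WT were wild-type animals from the heterozygous crosses of each line, and the labels give the strain of every animal as C57Bl/6J. All animals ate a western diet for 8 weeks, from 8 to 16 weeks of age. The mutation or deletion was carried by every cell of the body, and the RNA came from whole liver, in which fewer cells of a type and less RNA per cell cannot be told apart. The DN mice were males. The KO mice were handled in a repeat of the same experiment, the labels do not give their sex, and Ddx3y, a Y-linked gene, was well above 0 in all 32 livers. The models were bred and studied at different sites, so model and site cannot be told apart except through the wild-type littermates. The labels name no sequencing run.

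LXRα is a nuclear receptor for oxysterols. With ligand it activates genes of cholesterol export and lipid synthesis, and without ligand it holds co-repressors on the same genes. Deleting the receptor removes both functions, whereas a dominant negative receptor can still occupy its sites and repress. Some genes of the interferon-γ response, described below, differed between the models. Interferon-γ is made mainly by T and NK cells and acts through its receptor and the kinases JAK1 and JAK2 on genes that include 2 families of large GTPases that defend cells against intracellular microbes, the guanylate-binding proteins and the immunity-related GTPases.

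The library labelled DN:WT animal 10 and the library labelled DN:HOM animal 12 went against their labels. Of 4251 genes whose remaining DN:WT and DN:HOM livers did not overlap and differed in the test, the library labelled DN:WT animal 10 lay within the range of the homozygous livers for 3175 (74.7%) and within that of the wild-type livers for 109 (2.56%). The library labelled DN:HOM animal 12 lay within the wild-type range for 3375 (79.4%) and within the homozygous range for 88 (2.07%). No library was moved to another group. Values below leave both out (7 livers per DN group) unless all 8 livers are named, and results that hold in both sets of livers are given as such. Reads on genes numbered 5376226 to 16961379 per liver (median 15879971). Nr1h3 itself was lowered in KO:HOM livers, at 25.3 to 31.1 CPM (a gene's counts scaled to the reads on genes of its library, the same scale in every liver) against 81.5 to 108 CPM in KO:WT livers. In DN:HOM livers it was at 68.5 to 77.4 CPM against 82.0 to 96.9 CPM in DN:WT livers, so that the groups of each study did not overlap, as was the case for 33.5% of all genes in the DN and 2.55% in the KO livers.

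Of 15711 genes tested, the knock-in changed 9292 (59.1%) and the knockout 3048 (19.4%) at an adjusted p under 0.05 (edgeR's quasi-likelihood test, adjusted by Benjamini and Hochberg's method). The effects themselves differed for 5456 genes (34.7%), of which 2586 (16.5% of genes tested) had a positive and 2870 (18.3%) a negative difference. By whether each effect passed the threshold, 4202 of these genes were changed only in the knock-in, 263 only in the knockout, 136 in opposite directions, 684 in the same direction with unequal size, and 171 in neither model alone. With all 8 livers per group the effects differed for 1636 of 15621 genes (10.5%). For 1632 genes (10.4%) the difference passed the threshold in both sets of livers with 1 sign, 632 (4.05%) positive and 1000 (6.4%) negative. In this core, 1269 genes were changed only in the knock-in (506 positive, 763 negative), 181 only in the knockout (47 positive, 134 negative) and 134 in opposite directions (65 positive, 69 negative).

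**Figure D1:**
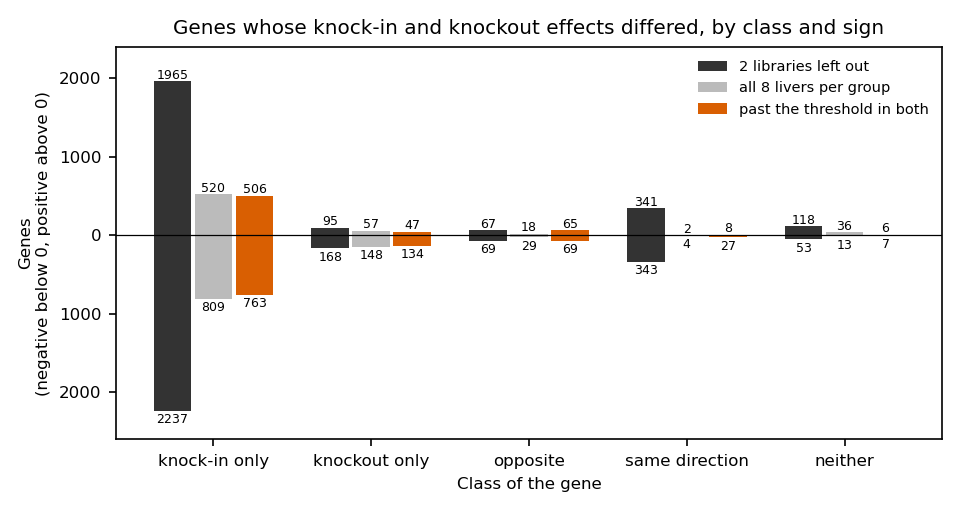
Number of genes (vertical axis) whose knock-in and knockout effects differed, by class (horizontal axis), with positive differences above 0 and negative ones below. Dark bars leave out DN:WT animal 10 and DN:HOM animal 12, grey bars use all 8 livers per group, and orange bars count genes past the threshold in both; the knock-in only class falls from 4202 to 1329 genes with all livers, and the knockout only class from 263 to 205.

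Genes of this core were kept because the difference passed in both sets of livers. Among them, class membership was steady for genes changed in 1 model only and unsteady for opposite effects. With all 8 livers, 1245 of the 1269 knock-in only genes and 178 of the 181 knockout only genes were in the same class. Both added libraries are DN livers that went against their labels, and knockout only genes have no called knock-in effect to shrink. These shares therefore do not show which class is firmer. Of the 134 genes changed in opposite directions, 47 remained so, 55 were called only in the knock-in, 22 only in the knockout and 10 in neither. An effect called in 1 model and not in the other does not by itself separate them, so the difference was tested for the genes named here, except Ifng, whose level was too low.

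**Figure D2:**
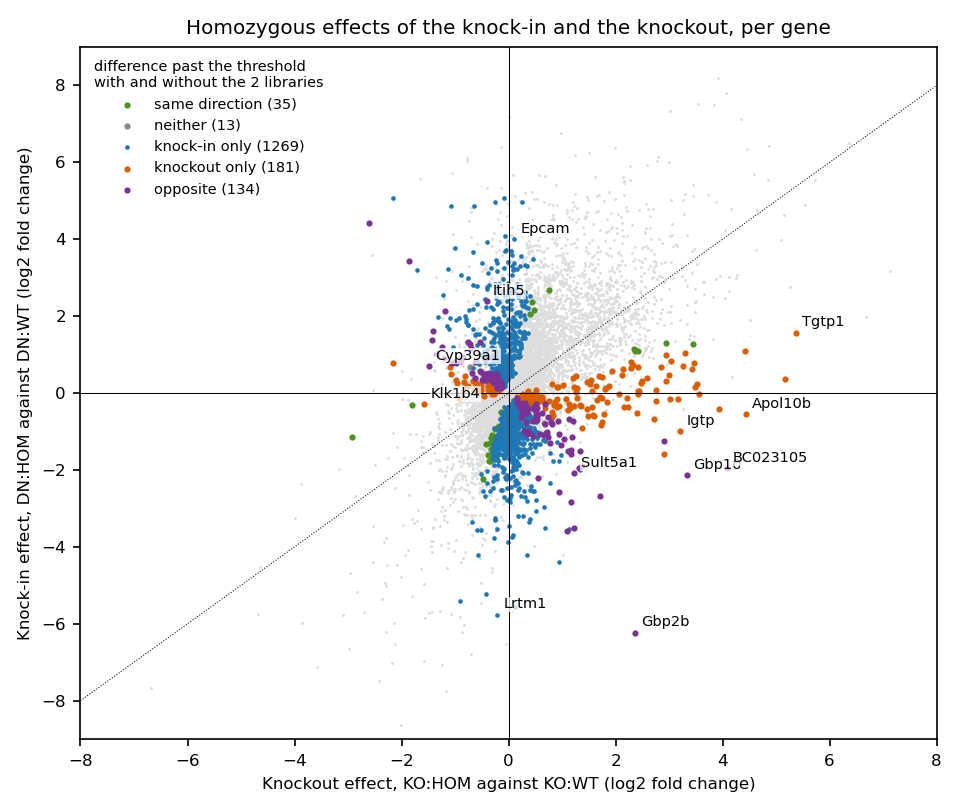
Knockout effect (horizontal axis, log2 fold change) against knock-in effect (vertical axis, log2 fold change) for the genes tested, with the 2 libraries left out. Coloured points are the genes whose difference passed the threshold with and without those libraries, and the dotted line marks equal effects. The labelled GTPases that rose in the knockout lie to the right (Tgtp1 at 5.37, Igtp at 3.20), below the line, while Epcam lies near 0 in the knockout and at 4.0 in the knock-in.

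The 6 knockout only genes with the most negative differences included interferon-inducible GTPases of both families, and stretches before their start sites are shown because members of both families moved together. Promoter sequences from RefSeq (build GRCm38.p6, used for sequence only) matched 13 of the 24 GTPase genes tested. Capitals mark matches, on either strand, to an interferon-stimulated response element (GAAA, any 2 bases, GAAA) or to an interferon-γ-activated GAS element written as TTCNNNGAA. Each line runs 5′ to 3′ over the 180 bases before the start of the gene, namely chr11:58199376-58199555 (plus strand) for Igtp, chr11:58214797-58214976 (plus) for Irgm2, chr11:48992247-48992426 (minus) for Tgtp1, chr3:142620483-142620662 (plus) for Gbp2, chr3:142496754-142496933 (plus) for Gbp5 and chr3:142594667-142594846 (plus) for Gbp2b.
Igtp: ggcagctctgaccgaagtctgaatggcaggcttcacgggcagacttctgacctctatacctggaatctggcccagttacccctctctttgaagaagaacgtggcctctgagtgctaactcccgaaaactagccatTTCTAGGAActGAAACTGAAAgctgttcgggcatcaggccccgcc
Irgm2: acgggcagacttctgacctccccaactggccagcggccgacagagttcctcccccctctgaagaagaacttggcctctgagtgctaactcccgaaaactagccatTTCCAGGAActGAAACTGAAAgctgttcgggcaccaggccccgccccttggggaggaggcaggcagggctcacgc
Tgtp1: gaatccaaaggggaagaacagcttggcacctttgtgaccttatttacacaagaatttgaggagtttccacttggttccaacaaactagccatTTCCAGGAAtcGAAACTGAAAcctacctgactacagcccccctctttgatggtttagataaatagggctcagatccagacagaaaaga
Gbp2: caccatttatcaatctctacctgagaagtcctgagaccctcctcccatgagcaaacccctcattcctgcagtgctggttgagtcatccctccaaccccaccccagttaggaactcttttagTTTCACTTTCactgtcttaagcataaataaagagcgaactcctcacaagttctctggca
Gbp5: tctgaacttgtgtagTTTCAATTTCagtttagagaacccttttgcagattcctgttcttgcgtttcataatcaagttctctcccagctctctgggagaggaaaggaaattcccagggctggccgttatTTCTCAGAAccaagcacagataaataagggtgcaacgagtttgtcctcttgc
Gbp2b: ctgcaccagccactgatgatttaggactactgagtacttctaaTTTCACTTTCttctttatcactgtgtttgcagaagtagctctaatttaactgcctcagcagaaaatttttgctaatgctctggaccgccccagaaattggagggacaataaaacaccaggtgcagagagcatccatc

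Over the full promoter window of 250 bases before to 50 after the start, 12 of the 13 GTPase promoters (92.3%) held the response element, against 943 of 27025 promoters of all genes (3.49%). The GAS element was found in 8 of 13 (61.5%) and in 8.47% of all promoters. In 5 of them, those of Igtp, Irgm2, Tgtp1, Tgtp2 and Gm12185, a GAS element ended 2 bases before a response element, an arrangement found in 5 of the 27025 promoters (0.0185%). Several of these 5 share much of the sequence around the pair, so they are not separate cases, and the count is no test. Of the knockout only genes of the core with a negative difference, 26 (25% of those with a promoter sequence) held the response element. These include GTPase genes already counted above, such as Igtp, Tgtp1 and Gbp5. The share was 3.46% for knock-in only genes with a negative difference, 3.25% for those with a positive difference and 5.41% for knockout only genes with a positive difference. Among genes with opposite effects, 5 of 41 (12.2%) with a negative and 0 of 52 with a positive difference held it. These matches describe letters in the sequence and are not binding sites shown by these data.

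The guanylate-binding proteins rose in the knockout and not, with few exceptions, in the knock-in. All 11 members tested were higher in KO:HOM than in KO:WT livers (median log2 fold change 2.75), against 11.5% of all genes that rose there. In the knock-in 1 rose and 3 fell (median -0.37), against 29.1% and 30% of all genes. Without DN:WT animal 13, described below, 2 rose and 2 fell there (median -0.02). The difference was negative and past the threshold for 11 of 11, against 18.3% of all genes, and also with the 2 libraries included (medians -2.97 and -2.90, against -0.00 and -0.03 over all genes tested). Of the 13 immunity-related GTPases tested, 11 rose in the knockout (median 2.91), 3 fell in the knock-in (median -0.55), and 12 differed (11 in both sets of livers), against the same shares of all genes. Without DN:WT animal 13 the knock-in median of these was -0.28, with 1 that rose and 2 that fell. These families were singled out after their values were seen, and their members include close copies, so reads could be shared among Gbp2 and Gbp2b or Tgtp1 and Tgtp2 and the levels of single members are uncertain.

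Igtp, an immunity-related GTPase, was at 22.1 to 61.5 CPM (median 32.3) in KO:WT and 32.2 to 553 CPM (median 325) in KO:HOM livers. It was at 20.4 to 206 CPM (median 33.4) in DN:WT and 16.1 to 47.6 CPM (median 25.5) in DN:HOM livers. All KO:HOM livers but animal 22 lay above every KO:WT liver, and no DN:HOM liver lay above the highest liver of either wild-type group. Its difference was -4.20 (SE 0.78, adjusted p = 4.11e-05 by edgeR's quasi-likelihood test) and -4.08 with all 8 livers. Tgtp1, a T-cell-specific GTPase by its name that hepatocytes also express under interferon-γ, had a median of 162 CPM in KO:HOM against 2.79 CPM in KO:WT livers, and of 14.3 CPM in DN:HOM against 3.0 CPM in DN:WT livers. Without DN:WT animal 13, Tgtp1 rose in the knock-in as well (2.33, adjusted p = 0.0227 by edgeR's quasi-likelihood test). Gbp5, which promotes inflammasome assembly, had medians of 24.5 CPM in KO:HOM, 1.71 CPM in KO:WT, 2.67 CPM in DN:HOM and 2.29 CPM in DN:WT livers. For both genes the lowest KO:HOM value, that of animal 22, overlapped the highest KO:WT value, that of animal 5. Gm12250 (difference -4.33), Gm4841 (-4.51) and Apol10b (-4.99), a member of the apolipoprotein L family, were also called only in the knockout, in both sets of livers. Without DN:WT animal 13 the differences were -3.39 for Igtp, -3.32 for Gm12250, -4.17 for Gm4841 and -4.40 for Apol10b. All of these were still called only in the knockout.

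**Figure D3:**
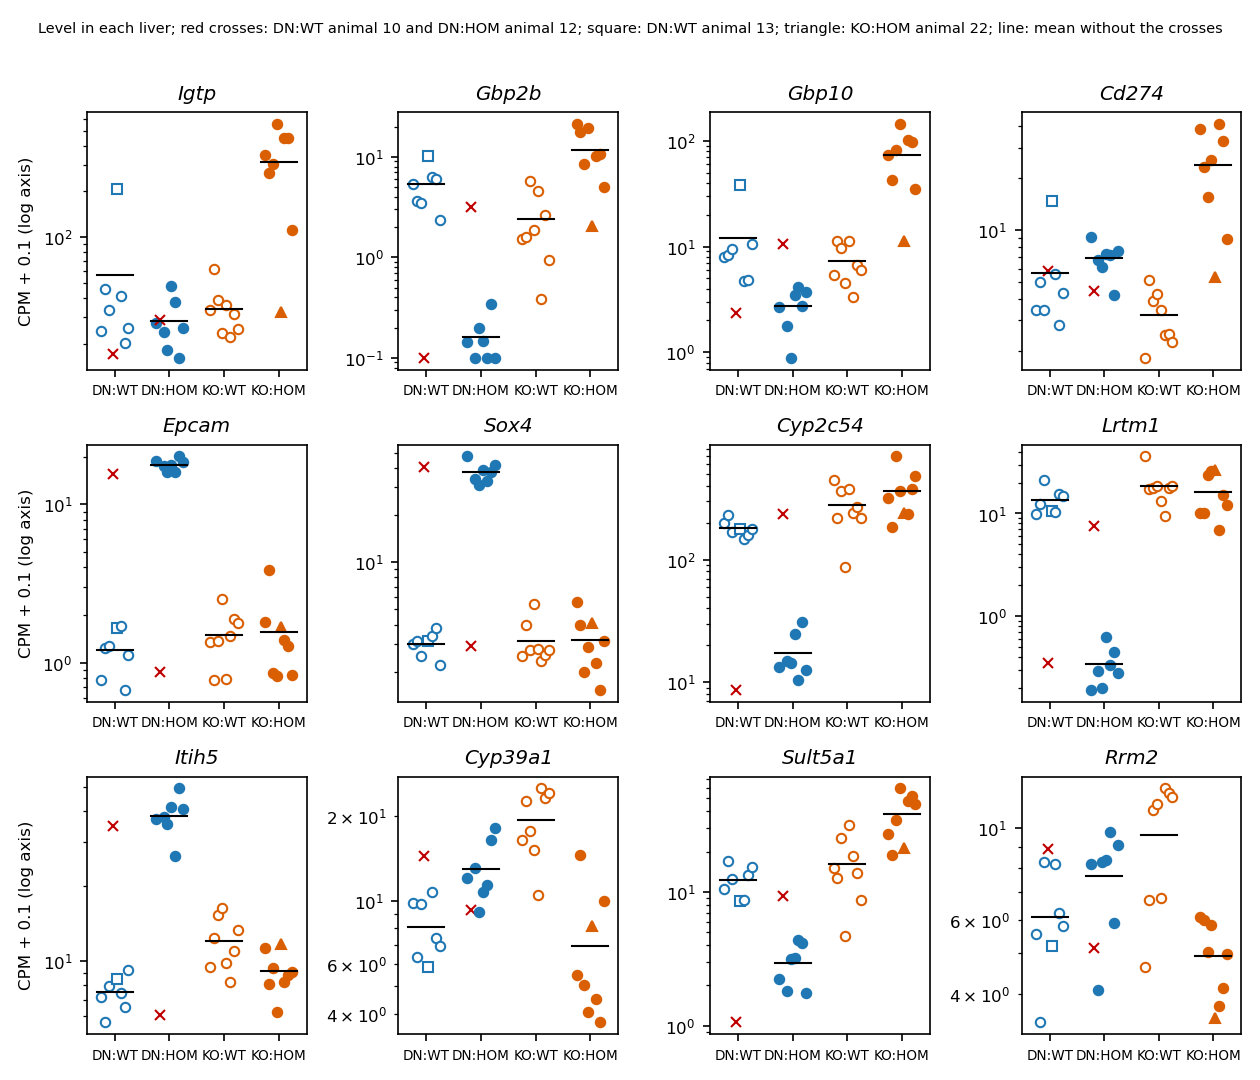
Level in each liver (CPM + 0.1, log axis) in DN:WT, DN:HOM, KO:WT and KO:HOM groups (horizontal axis) for 12 named genes, with the mean of each group without the 2 libraries as a line. Red crosses mark DN:WT animal 10 and DN:HOM animal 12, the square DN:WT animal 13 and the triangle KO:HOM animal 22. For Epcam, Sox4, Cyp2c54 and Lrtm1 each cross sits with the other DN group, and for Igtp the square (206 CPM) stands above the other DN:WT livers and the triangle (32.2 CPM) below the other KO:HOM livers.

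Single livers stood apart for these genes. The summed level of the 24 GTPase genes was 667 CPM in KO:HOM animal 22 and 1342 CPM in animal 30, against 2394 to 4632 CPM in the other KO:HOM livers. It was 2133 CPM in DN:WT animal 13 and 663 to 866 CPM in the other DN:WT livers. KO:WT livers lay between 620.0 and 987 CPM and DN:HOM livers between 518 and 820.4 CPM. Leaving out DN:WT animal 13 as well, a choice made after seeing the data, left all 11 guanylate-binding proteins and 11 of 13 immunity-related GTPases past the threshold with a negative difference (medians -2.56 and -2.47). Leaving out KO:HOM animal 22 gave 11 of 11 and 13 of 13 (medians -3.14 and -3.47). The KO:HOM livers also held more T-cell marker RNA (Cd3d, Cd3e and Cd3g summed, none of them at 0 in every liver), at 2.14 to 8.82 CPM against 0.486 to 2.22 CPM in KO:WT, 1.56 to 3.12 CPM in DN:HOM and 0.667 to 1.26 CPM in DN:WT livers. KO:HOM animal 22 had the lowest T-cell marker sum of its group, but the other KO:HOM livers did not follow that order. Animals 20, 26 and 27, with the highest GTPase sums (3881 to 4632 CPM), had T-cell marker sums of 2.72 to 3.68 CPM. Animals 8, 11, 17 and 30, with GTPase sums of 1342 to 3334 CPM, had 4.57 to 8.82 CPM. The part of T cells in the GTPase levels was not tested. Of 17 T and NK cell genes tested, 13 rose in the knockout and 8 in the knock-in, against 11.5% and 29.1% of all genes. Among them 1 difference passed the threshold, against 34.7%, although their median difference was -1.17, and -1.60 with all 8 livers.

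Along the pathway, the ligand Ifng was too low to be tested. It had reads in 7 of 8 KO:HOM livers (up to 0.935 CPM, 0 in animal 22), in 6 of 7 DN:HOM livers (up to 0.136 CPM), in 1 of 8 KO:WT livers and in 1 of 7 DN:WT livers. The receptor chains were raised in both models and more in the knock-in, Ifngr1 by 1.79 and 0.58 (difference 1.21) and Ifngr2 by 1.37 and 0.52 (difference 0.85), although these differences did not pass with all 8 livers. Jak1 and Jak2 did not differ between the models past the threshold (differences 0.14, SE 0.08, and -0.07, SE 0.14).

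Some further targets were called as raised only in the knockout, and others as raised in both models. Irf1, a transcription factor of the interferon response, had a difference of -1.29, Socs1, which inhibits the receptor's kinases, -3.33, and Cd274, the ligand of PD-1, an inhibitory receptor of T cells, -2.62. Cxcl9, which attracts T cells, had a difference of -3.17, and the peptide transporter Tap1 and the immunoproteasome subunit Psmb9 had differences of -1.93 and -1.71. All 6 passed the threshold in both sets of livers and were called only in the knockout. Ubd, a ubiquitin-like protein induced by interferon-γ and tumour necrosis factor, rose in both, by 6.43 in the knock-in and 4.86 in the knockout (difference 1.57, SE 0.92, not past the threshold, and -1.91 with all 8 livers). Ciita, which switches on MHC class II genes, rose by 2.5 and 3.83. The 12 MHC class II genes tested rose in 9 cases in the knock-in and 12 in the knockout (medians 2.44 and 3.49), against 29.1% and 11.5% of all genes. Among them 1 difference passed the threshold, against 34.7% of all genes. Their median difference was -0.97, and -1.72 with all 8 livers, so few calls do not show equal effects. Of 17 interferon-γ pathway genes tested, a list drawn up after their values were seen, 8 were knockout only with a difference past the threshold in both sets of livers, against 1.16% of all genes.

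A list of genes typical of type I interferon was likewise drawn up after their values were seen, and was not tested against the GTPases. Of 15 tested, 3 rose in the knockout (median 0.38), against 11.5% of all genes, and 2 rose and 4 fell in the knock-in (median -0.16), against 29.1% and 30%. Without DN:WT animal 13 the knock-in median was 0.11, with 3 that rose and 4 that fell. 4 had a negative difference past the threshold, against 18.3% of all genes, of which Ifit3 and Stat2 passed with all 8 livers as well, against 6.4% of all genes. Isg15 (difference -0.44, SE 0.37), Irf7 (-0.54, SE 0.43), Usp18 (-0.21, SE 0.44) and Rsad2 (-0.53, SE 0.36) did not pass. The larger list of 33 MHC class I and interferon-stimulated genes held 24 that rose in the knockout and 11 that rose in the knock-in, with 14 negative differences (11 in both sets of livers, against 6.4% of all genes).

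Genes that moved in opposite directions with a negative difference were led by further genes listed in the GTPase families. Gbp2b was at 2.25 to 10.1 CPM (median 5.33) in DN:WT and 0 to 0.247 CPM (median 0.0452) in DN:HOM livers, and at 0.287 to 5.65 CPM (median 1.62) in KO:WT and 1.95 to 21.1 CPM (median 10.3) in KO:HOM livers. The DN groups did not overlap, the KO groups did, and the fitted difference of -8.59 (SE 1.20) depends on the prior count because DN:HOM livers were near 0. The library labelled DN:WT animal 10 had 0 CPM of it and the library labelled DN:HOM animal 12 had 3.08 CPM. Gbp10 fell by 2.13 in the knock-in and rose by 3.34 in the knockout, and without DN:WT animal 13 it still fell, by 1.5. BC023105, listed here among the immunity-related GTPases, is annotated as a transcribed processed pseudogene, as is Gm12250. For Gbp4 and BC023105 the fall in the knock-in did not pass without DN:WT animal 13 (-0.60 and -0.44), and both were then called only in the knockout.

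Outside the GTPases, the fall in the knock-in of genes that rose in the knockout rested on non-overlapping DN livers for Sult5a1 and Fam83f. The DN groups did not overlap for 33.5% of all genes. Sult5a1, a cytosolic sulfotransferase, was at 8.44 to 16.9 CPM (median 12.2) in DN:WT, 1.67 to 4.24 CPM (median 3.05) in DN:HOM, 4.56 to 31.4 CPM (median 14.4) in KO:WT and 18.7 to 59.3 CPM (median 39.6) in KO:HOM livers. It fell by 2.08 and rose by 1.23, with a difference of -3.31 (SE 0.45, adjusted p = 1.65e-07 by edgeR's quasi-likelihood test) and of -2.82 with all 8 livers, where both effects were still called. Fam83f fell by 2.58 and rose by 0.94 (difference -3.52), and with all 8 livers it was called only in the knock-in. Without KO:HOM animal 22, a choice made after seeing the data, its knockout rise was not called either (adjusted p = 0.0593 by edgeR's quasi-likelihood test). Its level was higher in DN:WT than in KO:WT livers, by 0.88 on the log2 scale (adjusted p = 0.0436 by edgeR's quasi-likelihood test). With all 8 livers this was 0.74 and did not pass (adjusted p = 0.207 by edgeR's quasi-likelihood test). Among listed genes, the acute phase protein Orm3 (-1.96 and 1.31) and the macrophage lectin Siglec1 (-1.19 and 1.04) were opposite in both sets of livers, as was the cholesterol exporter Abca1 with smaller changes (-0.27 and 0.24). The basolateral bile acid exporter Abcc3 (-0.28 and 0.68) was called only in the knockout with all 8 livers. These 4 were taken from the lists after their values were seen. Of the 20 canonical LXR targets tested, the list that holds Abca1, 15 fell in the knock-in and 9 in the knockout, against 30% and 7.87% of all genes. In the knock-in 4 rose and in the knockout 5, against 29.1% and 11.5%. The class with the same direction held 7, against 4.35% of all genes, and 2 were opposite, against 0.866%. A negative difference was found for 10 and a positive one for 3, against 18.3% and 16.5%. In both sets of livers 3 and 1 did so, against 6.4% and 4.05%.

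In the other direction, opposite effects with a positive difference were smaller. Itih5, a heavy chain of the inter-α-trypsin inhibitor family that binds matrix hyaluronan, was at 5.59 to 9.13 CPM (median 7.34) in DN:WT and 26.4 to 49.3 CPM (median 38.0) in DN:HOM livers, which did not overlap. In KO:WT livers it was at 8.19 to 16.3 CPM (median 11.6) and in KO:HOM livers at 6.16 to 11.6 CPM (median 8.82), which did. The difference was 2.79 (SE 0.22), but the knockout fall of 0.41 was not called with all 8 livers. Cyp39a1, an oxysterol 7α-hydroxylase, rose by 0.70 in the knock-in and fell by 1.48 in the knockout, and only the fall was called with all 8 livers. Tle6 (1.01 and -1.33), a member of the Groucho co-repressor family, and Ihh (0.90 and -1.20), a hedgehog ligand, were opposite in both sets of livers. Mpzl1 rose by 1.33 and fell by 0.75, and the fall was not called with all 8 livers or without KO:HOM animal 22.

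Igfbp1, an insulin-repressed binding protein of insulin-like growth factors, was at 8.41 to 49.6 CPM in DN:WT, 12.1 to 74.3 CPM in DN:HOM, 21.2 to 107 CPM in KO:WT and 7.02 to 52.2 CPM in KO:HOM livers. All 4 groups overlapped, and with all 8 livers neither effect of Igfbp1 was called. Wild-type levels of the studies differed for several of these genes. DN:WT livers were lower than KO:WT livers by 1.53 on the log2 scale for Igfbp1, by 1.27 for Cyp39a1 and by 0.69 for Itih5, with adjusted p-values of 0.024, 0.00101 and 0.00176 (edgeR's quasi-likelihood test). With all 8 livers they were lower by 1.16, 1.12 and 0.13, with adjusted p-values of 0.0824, 0.00289 and 0.811 (edgeR's quasi-likelihood test). Only the wild-type difference of Cyp39a1 passed there. Without DN:WT animal 13, the rises of Cyp39a1 and Ihh in the knock-in were not called (adjusted p = 0.0609 and 0.0601), although the differences passed.

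The 6 largest positive differences of knock-in only genes included Epcam and Sox4, genes of the biliary epithelium. Epcam, an adhesion molecule of bile duct and progenitor cells, was at 0.571 to 1.60 CPM (median 1.13) in DN:WT and at least 15.8 CPM (median 17.7) in DN:HOM livers, with no overlap. It was at 0.672 to 2.41 CPM (median 1.31) in KO:WT and 0.728 to 3.75 CPM (median 1.23) in KO:HOM livers, and 1 of these, animal 11, lay above the wild types. The difference was 3.90 (SE 0.48, adjusted p = 1.76e-08 by edgeR's quasi-likelihood test), and 2.28 (SE 0.74, adjusted p = 0.0399) with all 8 livers. Sox4, a transcription factor of biliary development, was at 30.9 to 47.3 CPM in DN:HOM livers and at 1.43 to 5.45 CPM in the other 3 groups. Its difference was 3.65, and 2.06 with all 8 livers.

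Of 16 cholangiocyte and ductular genes tested, 14 rose in the knock-in (median 3.45), against 29.1% of all genes, and 3 in the knockout (median 0.16), against 11.5%, and 14 had a positive difference against 16.5% of all genes. With all 8 livers 5 still passed, against 4.05% of all genes in both sets of livers, namely the keratins Krt7, Krt19 and Krt8 with Epcam and Sox4. In a fit of the 4 compared groups alone with all 8 livers, added after seeing the data, 0 passed (median difference 1.04). The keratin Krt19 was at 8.95 to 10.2 CPM in DN:HOM livers and at 0.185 to 2.08 CPM in the others, Cftr, the apical chloride channel of bile ducts, rose by 4.01 and Prom1 by 3.95, with knockout values of -0.30 and -0.02. Onecut1, a hepatobiliary transcription factor, and Krt23 had no difference past the threshold. The sum of the markers Krt7, Krt19 and Epcam was 30.7 to 36.0 CPM in DN:HOM livers and 1.46 to 6.55 CPM in the other groups.

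Other genes named by the rule rose in the knock-in alone. Slc5a1, the sodium–glucose cotransporter SGLT1, was at 7.92 to 12.2 CPM in DN:HOM livers and below 2 CPM in every liver of the other groups. Wnk4, a kinase that controls ion transport, had medians of 8.09 CPM in DN:HOM, 0.714 CPM in DN:WT, 1.69 CPM in KO:WT and 1.18 CPM in KO:HOM livers. Scara3, a scavenger receptor of class A, had a difference of 3.76, and Kif12, a kinesin, of 3.59. In each of these 4 genes the DN:HOM livers lay above all livers of the other groups. The DN groups did not overlap for 33.5% of all genes, and these 4 were picked for their large differences.

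Most listed matrix, cell cycle and macrophage genes rose in the knock-in, and their differences from the knockout rested on the livers used. Of all genes tested 29.1% rose in the knock-in and 11.5% in the knockout, and 16.5% had a positive difference (4.05% in both sets of livers). Of 34 stellate cell and matrix genes tested, 32 rose in the knock-in (median 1.98) and 15 in the knockout (median 0.58), with 24 positive differences, of which 2, Tagln and Ccn2, passed with all 8 livers. Of 25 cell cycle genes, 22 and 3 rose (medians 2.08 and 0.42), with 14 positive differences and 1 in both sets of livers, which was Rrm2 through its fall in the knockout. Of 23 genes of lipid-associated and infiltrating macrophages, 20 and 15 rose, so that most rose in both models, with a median difference of 1.59 that was 0.04 with all 8 livers. With all 8 livers the median difference of 25 chemokines and receptors changed sign, from 0.71 to -0.34, and that of 23 NRF2 targets from 0.29 to -0.11. With only DN:WT animal 10 left out these medians were 0.53 and 0.28, and with only DN:HOM animal 12 left out -0.25 and -0.03. With limma's quality weights over all livers they were 0.72 and 0.17. The sign of both lists thus depended on DN:WT animal 10. Summed stellate cell markers were at 311 to 471 CPM in DN:HOM, 237 to 384 CPM in KO:HOM, 171 to 213 CPM in DN:WT and 163 to 292 CPM in KO:WT livers. Summed markers of other macrophages were at 224 to 399 CPM in DN:HOM and 47.9 to 159 CPM in KO:HOM livers. The part of these cells in the list values was not tested.

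Of 20 resident Kupffer cell genes tested, 12 fell in the knock-in and 6 in the knockout, against 30% and 7.87% of all genes, and 11 had a negative difference, against 18.3%. Of these, 4 passed in both sets of livers, against 6.4% of all genes, namely Vsig4, Fcna, Siglec1 and Pira2, the last through a rise in the knockout. Vsig4, a complement receptor of Kupffer cells, was at 0.711 to 2.22 CPM in DN:HOM and 14.7 to 23.1 CPM in DN:WT livers without overlap, and at 5.62 to 21.4 CPM in KO:HOM and 7.47 to 25 CPM in KO:WT livers with broad overlap. Fcna, a ficolin of the lectin complement pathway, fell by 3.20 in the knock-in and had a knockout value of 0.17. Cd5l, a secreted macrophage protein, fell in both, to at most 0.592 CPM in DN:HOM and 3.42 CPM in KO:HOM livers, and its difference did not pass (-0.98, SE 0.87). The summed Kupffer cell markers were at 1.56 to 3.50 CPM in DN:HOM, 21.7 to 66.2 CPM in KO:HOM, 131 to 256 CPM in DN:WT and 74.0 to 299.7 CPM in KO:WT livers, with 0 of 5 markers at 0 in every liver.

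**Figure D4:**
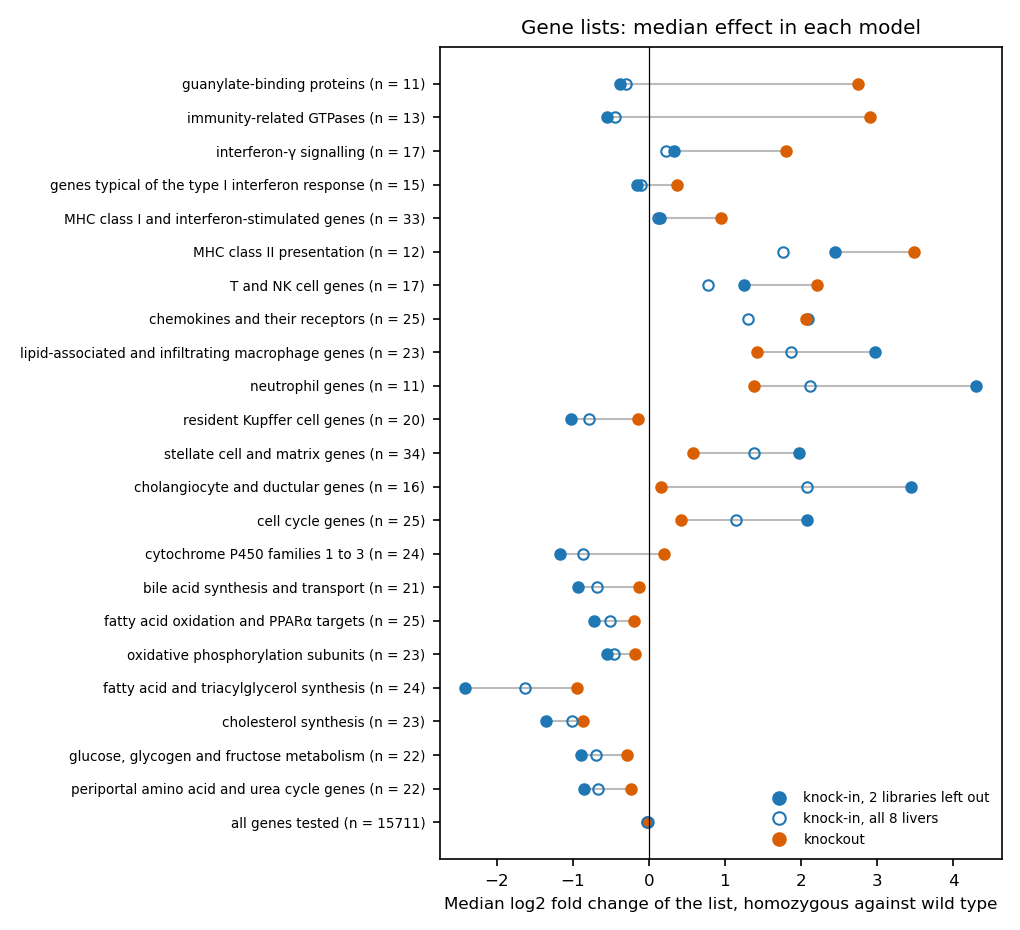
Median log2 fold change (horizontal axis) of each gene list in the knock-in (blue, filled without the 2 libraries and open with all 8 livers) and in the knockout (orange), with the number of genes tested beside each name. The guanylate-binding proteins sit at -0.37 in the knock-in (-0.02 without DN:WT animal 13) and 2.75 in the knockout, the cholangiocyte and ductular genes at 3.45 and 0.16, and all genes tested at -0.01 and -0.02.

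Several lists of hepatocyte metabolism held genes lowered only in the knock-in. Cyp2c54, a cytochrome P450 that oxidises fatty acids and drugs, was at 147 to 229 CPM (median 177) in DN:WT and 10.4 to 31.1 CPM (median 14.3) in DN:HOM livers, which did not overlap. It was at 86.5 to 448 CPM (median 252) in KO:WT and 183 to 695 CPM (median 341) in KO:HOM livers, which did. The difference was -3.74 (SE 0.42), and -2.23 with all 8 livers. Of 24 cytochrome P450 genes of families 1 to 3 tested, 17 fell in the knock-in, against 30% of all genes, and 1 in the knockout, against 7.87% (medians -1.17 and 0.20). A negative difference was found for 18, against 18.3% of all genes, and for 12 of them in both sets of livers, against 6.4%. Summed hepatocyte markers were at 40370 to 48170 CPM in DN:HOM, 51940 to 72390 CPM in KO:HOM, 58760 to 76360 CPM in DN:WT and 70810 to 91880 CPM in KO:WT livers, and their part in these values was not tested.

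Of 13 Cyp2c members tested, a family chosen after its values were seen, 12 fell in the knock-in, against 30% of all genes. In the knockout 5 fell and 1 rose, against 7.87% and 11.5%, and 7 differed between the models, against 34.7%. Cyp2c29, Cyp2c37, Cyp2c50 and Cyp2c54 fell by 3.20, 3.07, 2.56 and 3.37 in the knock-in, with knockout values of 0.28, 0.51, 0.29 and 0.38, none of them called, and their differences passed in both sets of livers. Cyp2c70, which makes muricholic acids, fell in both, by 1.53 and 1.61 (difference 0.08, SE 0.33). Reads of these close copies could be shared. Cyp3a59 went the other way, at 177 to 245 CPM in KO:HOM and 28.7 to 65.7 CPM in KO:WT livers without overlap, and at 33.3 to 69.2 CPM in DN:HOM and 28.4 to 69.1 CPM in DN:WT livers. Its difference was -2.40 in the reduced set and -2.39 with all 8 livers.

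Bile acid genes were lowered in the knock-in in 17 of 21 cases tested and in the knockout in 5, against 30% and 7.87% of all genes, with 13 negative differences, against 18.3%. Of these, 5 were past the threshold in both sets of livers, against 6.4% of all genes, namely Cyp8b1, Akr1d1, Slc27a5, Baat and Abcc3. Cyp8b1, the sterol 12α-hydroxylase that sets the share of cholic acid, was at 26.9 to 162 CPM (median 40.5) in DN:HOM and 289 to 444 CPM (median 387) in DN:WT livers, with no overlap. In KO:HOM livers it was at 203 to 545 CPM (median 440) and in KO:WT livers at 160 to 370 CPM (median 282). Cyp7a1, the rate-limiting enzyme of bile acid synthesis, had a difference of -1.03 (SE 0.50) that did not pass.

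All 23 oxidative phosphorylation subunits tested fell in the knock-in (median -0.55) and 4 in the knockout (median -0.18), against 30% and 7.87% of all genes. Of the 23, 16 differed, against 34.7% of all genes, 7 of them in both sets of livers, against 10.4%. Sdhb, the iron–sulfur subunit of complex II, was at 86.7 to 120 CPM in DN:HOM and 190 to 250 CPM in DN:WT livers, and at 170 to 246 CPM in KO:HOM and 180 to 240 CPM in KO:WT livers. The difference was -1.0 (SE 0.11), and -0.77 with all 8 livers. Of 25 genes of fatty acid oxidation, 17 had a negative difference, against 18.3% of all genes. In both sets of livers 5 passed, against 6.4%, among them Cpt2, Ehhadh, Acaa1a and Acaa1b. Of 22 periportal genes of amino acid breakdown and the urea cycle, 17 fell in the knock-in and 7 in the knockout, against 30% and 7.87% of all genes. 13 had a negative difference, against 18.3%, and 5 of these passed in both sets of livers, against 6.4%. Hal, which starts histidine breakdown, fell by 1.58 and had a knockout value of 0.31 (difference -1.89).

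Many genes of lipid synthesis fell in both models. Of 24 genes of fatty acid and triacylglycerol synthesis tested, 21 fell in the knock-in and 19 in the knockout, against 30% and 7.87% of all genes (medians -2.41 and -0.95), and 13 were in the class with the same direction, against 4.35% of all genes. 16 had a negative difference, against 18.3% of all genes, and 2 of these passed with all 8 livers, against 6.4% of all genes in both sets. Of 23 cholesterol synthesis genes 20 and 21 fell, 7 differed, against 34.7% of all genes, and the median difference was -0.36, or -0.08 with all 8 livers.

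Lrtm1 led the knock-in only genes with negative differences. Lrtm1, a leucine-rich repeat membrane protein, was at 0.0904 to 0.528 CPM (median 0.190) in DN:HOM and 9.84 to 21 CPM (median 12.2) in DN:WT livers. KO:HOM and KO:WT livers were at 6.78 to 26.3 CPM and 9.41 to 36.0 CPM. The difference of -5.55 (SE 0.55) was -3.34 with all 8 livers. Extl1, a glycosyltransferase of heparan sulfate, fell by 3.68, and Fbxo40, a subunit of ubiquitin ligases, by 4.20. Capn8, a calpain protease, fell by 4.22, and Obp2a, a lipocalin, by 4.39. In Lrtm1 and these 4 genes, picked for their large differences, the DN groups did not overlap and the KO groups did. Of all genes, 33.5% had no overlap in the DN and 2.55% in the KO livers. Obp2a was higher in DN:WT than in KO:WT livers, by 2.48 on the log2 scale (adjusted p = 0.000178, edgeR's quasi-likelihood test).

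The 95 knockout only genes with a positive difference had smaller differences than the GTPases among those named. Rrm2, a subunit of ribonucleotide reductase, was at 3.4 to 6.00 CPM (median 4.91) in KO:HOM and 4.54 to 12.3 CPM (median 11.1) in KO:WT livers, which overlapped through 1 low KO:WT liver. It was at 3.98 to 9.66 CPM in DN:HOM and 3.32 to 8.15 CPM in DN:WT livers. Its difference was 1.33 (SE 0.31), and 1.17 with all 8 livers. The log2 level of Rrm2 in DN:WT minus that in KO:WT livers was -0.67 (adjusted p = 0.0395 by edgeR's quasi-likelihood test). With all 8 livers it was -0.58 and did not pass (adjusted p = 0.0675 by edgeR's quasi-likelihood test). Klk1b4, a kallikrein with near-identical copies, fell by 1.57 in the knockout and Igfbp2 by 0.79. Tmc7 and Hspa2, a heat shock protein, fell by 1.10 and 0.83, and both were higher in KO:WT than in DN:WT livers (by 1.43 and 1.33 on the log2 scale). Tmc7 had medians of 4.53 CPM in KO:HOM and 5.07 CPM in DN:WT livers, and Hspa2 of 3.33 and 1.91 CPM.

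**Figure D5:**
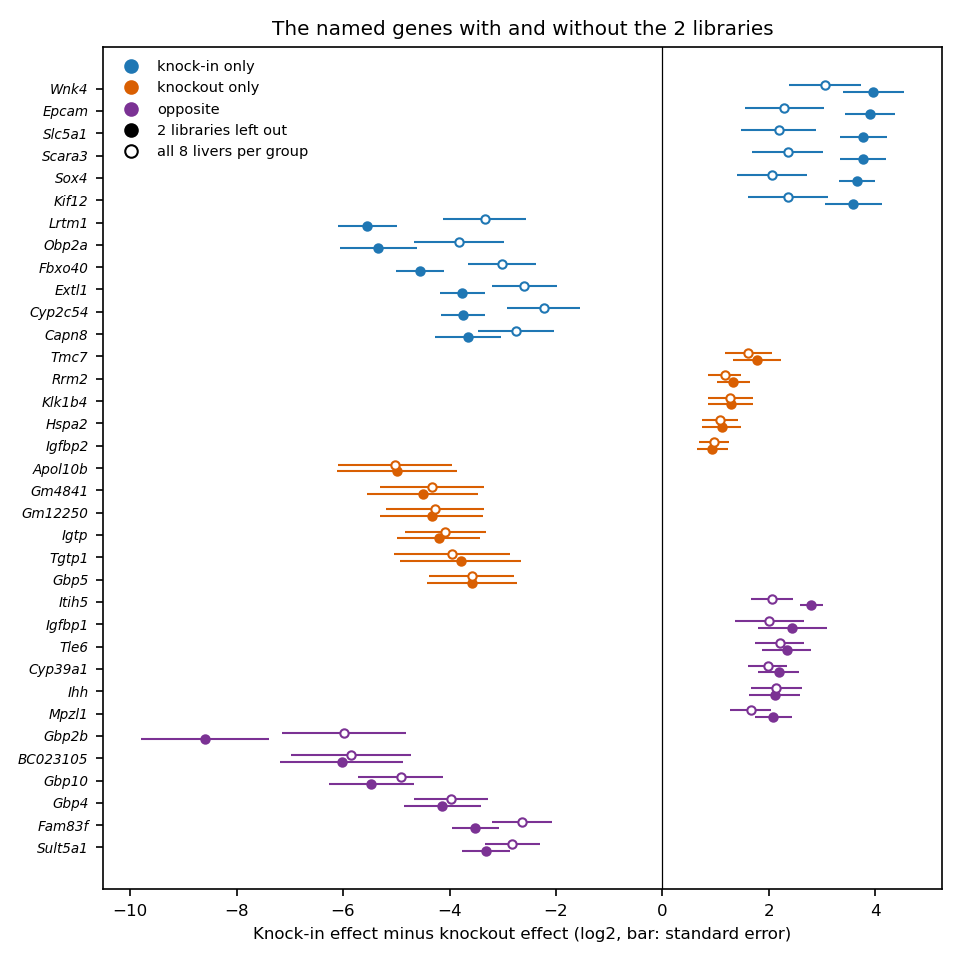
Difference of effects (horizontal axis, log2, with standard error) for 35 genes named by rule (vertical axis), without the 2 libraries (filled) and with all 8 livers per group (open). With all livers the difference of Epcam (knock-in only) goes from 3.90 to 2.28 and that of Igtp (knockout only) from -4.20 to -4.08. Both added libraries are DN livers that went against their labels. They act on knock-in effects, so the shift does not show which class is steadier.

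Wild-type levels of the 2 studies differed for 1887 genes (12%) of all tested and for 790 (14.5%) of those with a difference of effects. The wild-type livers enter both quantities, so the shares describe the genes and are no test. The share with unequal wild-type levels was 22.1% among genes with opposite effects, 16.3% among knockout only and 14.6% among knock-in only genes. Mt1, a metallothionein chosen after its values were seen, is given for its levels alone, and its wild-type ranges overlapped between the studies. It was at 3.93 to 20.9 CPM in DN:WT and 42.3 to 147 CPM in DN:HOM livers, which did not overlap, and at 9.77 to 124 CPM in KO:WT and 13.8 to 156 CPM in KO:HOM livers, which did.

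Genes on the chromosome around Nr1h3 were counted because the KO line descends from Sv129 stock. Within 10 Mb of Nr1h3, 32 of 81 genes tested (39.5%) had a difference against 34.7% of all genes, and 15 (18.5%) were changed by the knockout against 19.4%. 1 gene of the window was knockout only, against 1.67% of all genes, and 2 were opposite, Calcrl and Celf1, against 0.866%. With all 8 livers Celf1 was called only in the knock-in. Within 5 Mb 24 of 53 genes (45.3%) had a difference.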

How the data were processed

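Poly(A) RNA of 48 livers was sequenced, and the authors deposited 1 table of raw read counts per gene for each liver, made with STAR 2.5.0a on GRCm39 with Ensembl release 104 genes (the submitters' processing notes and the files). The column that matches the strand of the library was used. Rows that name no gene held 29.9%, 25.2%, 26.5% and 25.5% of reads (medians of DN:WT, DN:HOM, KO:WT and KO:HOM) and were left out. Symbols came from GENCODE M39. Each replicate was a separate animal.

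Counts were filtered with filterByExpr, scaled with TMM and fitted with edgeR 4.0.16 (R 4.3.3) as 6 group means over 46 livers. The difference of effects was tested with edgeR's quasi-likelihood test and Benjamini–Hochberg adjustment over all genes, at 0.05. Named genes were, for knock-in only, knockout only and opposite effects and for each sign, the 6 largest differences past the threshold with and without the 2 libraries, with a mean log2 CPM above 1 and a symbol. Some genes, 1 of them chosen by this rule, are not reported here. Members and lists (38 lists, and 5 families added after their values were seen) were chosen with earlier results of these data known. P-values measure the spread between animals. Alternatives were all livers, other libraries left out, DESeq2 1.42.0, limma 3.58.1 with quality weights, other scaling, filters, thresholds, strand and windows. The fits were tested on simulated data. Tables and figures were made with Python 3.11.15, numpy 2.4.6, pandas 2.3.3 and matplotlib 3.10.9.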

Additional observations from a re-analysis of the deposited data

Results flagged for a closer look

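The homozygous effects differed between the models for 5456 genes by the test of the difference itself (edgeR's quasi-likelihood test). Among the named genes, positive log2 differences were 3.96 for Wnk4, 3.90 for Epcam, 3.78 for Slc5a1, 3.76 for Scara3, 3.65 for Sox4 and 3.59 for Kif12. They were 2.79 for Itih5, 2.44 for Igfbp1, 2.34 for Tle6, 2.18 for Cyp39a1, 2.11 for Ihh and 2.08 for Mpzl1. Smaller ones were 1.77 for Tmc7, 1.48 for Nr1h3, 1.33 for Rrm2, 1.28 for Klk1b4, 1.11 for Hspa2 and 0.937 for Igfbp2.

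Negative differences were -8.59 for Gbp2b, -6.03 for BC023105, -5.55 for Lrtm1, -5.47 for Gbp10, -5.33 for Obp2a and -4.99 for Apol10b. They were -4.55 for Fbxo40, -4.51 for Gm4841, -4.33 for Gm12250, -4.20 for Igtp, -4.14 for Gbp4 and -3.79 for Tgtp1. The rest were -3.76 for Extl1, -3.74 for Cyp2c54, -3.65 for Capn8, -3.58 for Gbp5, -3.52 for Fam83f and -3.31 for Sult5a1.

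Single livers lay far from the rest of their group in 22 of 144 sets of 1 gene in 1 group (15.3%). The rate to be expected by chance was not measured. These sets are not independent, since several come from 1 liver. DN:WT animal 13 was such a liver for Igtp (206 CPM), BC023105 (163 CPM), Gbp4 (41.1 CPM), Gbp10 (37.8 CPM), Tgtp1 (19 CPM), Gm12250 (10.4 CPM), Gbp5 (7.33 CPM), Wnk4 (2.52 CPM) and Apol10b (2.37 CPM). KO:WT animal 5 was one for Igtp (61.5 CPM), BC023105 (34.2 CPM), Tgtp1 (13.7 CPM), Gm12250 (4.57 CPM) and Gbp5 (4.04 CPM). KO:HOM animal 11 was one for Igfbp1 (52.2 CPM), Tmc7 (15.4 CPM) and Epcam (3.75 CPM). The others were DN:WT animal 21 for Igfbp1 (49.6 CPM), KO:WT animal 1 for Lrtm1 (36.0 CPM), KO:HOM animal 22 for Extl1 (22 CPM), DN:HOM animal 19 for Fam83f (2.69 CPM) and DN:HOM animal 33 for Gbp2b (0.247 CPM). KO:HOM animal 17 had 5376226 reads on genes, fewer than the other livers of its group.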

How the results depend on the processing

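Of 36 genes, namely those named by rule and Nr1h3, 28 passed the threshold in each of 15 refits, and no direction reversed in any of them. The rule required a difference past the threshold with the same sign with all 8 livers, a fit that is among these refits. The refits also share most livers, so this steadiness is partly built in and is no test. Using all 8 livers per group gave 1636 differences, 1329 knock-in only genes, 47 opposite genes and 2016 genes changed by the knockout (edgeR's quasi-likelihood test). Leaving out DN:HOM animal 12 alone gave 3529 differences. Without a filter on low counts 81 genes were opposite. At an adjusted p under 0.01 there were 114 knockout only genes, 34 opposite genes, 1755 genes changed by the knockout and 940 that differed between wild types. With a log2 difference of at least 1 as well, there were 2200 differences, 1647 of them knock-in only, 117 knockout only and 72 opposite. Within 20 Mb of Nr1h3 69 genes differed. 4 alternatives were added after seeing the data. One of these, a fit of the 4 compared groups alone with all 8 livers, gave 1094 differences, 805 knock-in only genes, 45 opposite genes and 1815 genes changed by the knockout, and there Epcam, Slc5a1, Scara3, Sox4, Kif12, Cyp2c54 and Klk1b4 did not pass. The others left out DN:WT animal 13, KO:HOM animal 22 or both. Tgtp1 did not pass with limma's quality weights (-3.41). Beyond the livers and thresholds named, the cause was not tested. The share of positive differences was 47.4%, and 54.6% with upper-quartile scaling, 50.2% with DESeq2, 38.7% with all livers, 38.2% without DN:HOM animal 12 alone and 31.9% in the 4 groups alone with all livers. Depth limited genes near 0 CPM, such as Gbp2b in DN:HOM livers. No paired analysis was possible because the numbers name animals within each study, the same number in both studies belongs to different animals, and no animal is in more than 1 group.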

Other observations

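Neutrophil markers were at 18.7 to 61.2 CPM, summed over 3 genes, in DN:HOM livers and at 0.756 to 7.54 CPM in KO:HOM livers, with wild-type livers at 2.89 CPM or below. Of 11 neutrophil genes tested, 6 had a positive and 1 a negative difference (against 16.5% and 18.3% of all genes) without the 2 libraries (edgeR's quasi-likelihood test), and their median difference was 2.12, or 0.61 with all 8 livers. Of 22 acute phase genes, 7 had a positive and 3 a negative difference, and in both sets of livers 1 and 2 did, against 4.05% and 6.4% of all genes. Apcs, serum amyloid P component, was at 90.8 to 124 CPM in DN:HOM livers and at 34.6 to 73.2 CPM in the other groups. Of 22 genes of glucose, glycogen and fructose metabolism, 14 had a negative difference, against 18.3% of all genes, and Fbp1, Pygl, Khk and Slc2a5 passed in both sets of livers.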
